A study of Rattus norvegicus with 8 samples.

Results

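Lysosome and autophagy genes were examined in whole kidneys of the HSRA rat, a model of unilateral renal agenesis bred from a heterogeneous stock, at 4 weeks of age. The HSRA-S group held 4 kidneys of animals born with a solitary kidney, and the HSRA-C group held 4 kidneys of animals of the same model with a kidney pair, the study's control. RNA of every kidney was read on an Affymetrix Rat Gene 1.1 ST array, which measures a gene through a probe set. The labels give no agent or transgene for either group, and they state neither sex nor litter, nor which kidney of a pair was taken. The tubular genes Lrp2 (10.99 to 11.34), Slc34a1 (11.83 to 12.09) and Umod (11.55 to 11.7) were bright on all 8 arrays on the log2 scale. The genes were a list of 35 lysosomal and autophagy genes, chosen by name with earlier results of these data known. Of these, 32 had a probe set annotated to their symbol alone, out of 17245 genes named in this way. All 32 passed the filter on dim genes and entered the test with 13796 genes in all. For Ctsa only probe sets shared with Pltp were found, and Ctsz and Gaa had no probe set under their symbol, so these 3 were not analysed here.

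Lysosomes are the acidic compartments in which cells break down proteins, glycans and lipids taken up from outside or delivered from within by autophagy. In the kidney, the proximal tubule is known for its large lysosomal system, which degrades proteins reabsorbed from the filtrate, and macrophages are another cell type rich in lysosomes. Many lysosomal genes are targets of Tfeb and its relatives of the MiT family, transcription factors that bind an element with the core CACGTG. Autophagy encloses cytoplasm in a membrane carrying Map1lc3b and Gabarapl1 proteins, to which cargo is tethered by receptors such as Sqstm1.

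The element was looked for in RefSeq promoter windows of the GRCr8 assembly, each running from 250 bases before to 50 bases after a gene's start. A window was found for 26 of the 32 members. Hexa, Ctsb, Asah1, Arsb, Ppt1 and Psap had none and could not be searched. The 7 letters TCACGTG, which contain the core CACGTG, stood on either strand in the windows of 4 of these 26 members, Lamp1, Mcoln1, Ctsd and Glb1, or 15.4%. They stood in 3.2% of all 33469 windows, and in those of 5.26% of the 11323 tested genes that had a window. The core CACGTG alone was in the windows of 5 members, those 4 and Cd63, or 19.2%, against 6.42% of all windows and 9.34% of the tested genes with a window. A match is a description of the letters and does not show that a factor binds there. The 4 windows are printed 5′ to 3′ on the gene's strand because they show how the sites are spaced, with TCACGTG and its reverse complement in capitals.
Lamp1: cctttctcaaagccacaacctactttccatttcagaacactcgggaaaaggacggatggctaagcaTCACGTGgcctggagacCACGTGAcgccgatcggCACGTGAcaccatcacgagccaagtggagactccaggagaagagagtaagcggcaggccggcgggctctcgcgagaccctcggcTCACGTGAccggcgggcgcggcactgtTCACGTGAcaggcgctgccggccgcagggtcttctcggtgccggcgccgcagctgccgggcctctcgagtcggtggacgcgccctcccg
Mcoln1: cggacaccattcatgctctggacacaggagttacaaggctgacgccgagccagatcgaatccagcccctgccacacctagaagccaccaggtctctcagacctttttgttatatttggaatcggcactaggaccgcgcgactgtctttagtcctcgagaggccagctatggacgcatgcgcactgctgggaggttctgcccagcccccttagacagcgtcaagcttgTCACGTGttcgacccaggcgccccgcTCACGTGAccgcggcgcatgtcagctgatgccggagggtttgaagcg
Ctsd: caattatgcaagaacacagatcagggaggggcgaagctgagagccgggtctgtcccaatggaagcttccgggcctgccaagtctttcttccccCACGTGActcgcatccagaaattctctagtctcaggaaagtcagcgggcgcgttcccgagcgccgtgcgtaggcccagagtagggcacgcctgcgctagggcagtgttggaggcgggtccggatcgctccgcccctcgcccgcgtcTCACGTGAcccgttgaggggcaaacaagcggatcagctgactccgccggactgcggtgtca
Glb1: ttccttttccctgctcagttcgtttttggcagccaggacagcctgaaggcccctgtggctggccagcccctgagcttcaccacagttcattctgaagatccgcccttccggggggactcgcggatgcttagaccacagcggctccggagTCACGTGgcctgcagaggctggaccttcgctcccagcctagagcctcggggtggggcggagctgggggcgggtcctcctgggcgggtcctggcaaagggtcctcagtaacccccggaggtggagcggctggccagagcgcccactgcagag
The Lamp1 window (chr16:83075014-83075313, minus strand) held 5 separate sites, whose cores began 183, 167, 150, 65 and 38 bases before the start. The Mcoln1 window (chr12:6358008-6358307, plus strand) held 2, with cores beginning 22 bases before the start and at base 5 after it. In Ctsd (chr1:206968772-206969071, minus strand) the 2 cores began 157 and 10 bases before the start, and in Glb1 (chr8:122963468-122963767, plus strand) the only core began 100 bases before it. Of the 4 genes, Lamp1 and Mcoln1 are among the members at an unadjusted p under 0.05 described below, while Ctsd and Glb1 are not. Hexa and Ctsb are at that limit too, but had no window. The others at that limit, Ctsh, Ctsc, Lipa, Ctss, Sqstm1 and Neu1, had a window that held neither TCACGTG nor CACGTG.

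The arrays were alike in overall level, with median intensities of 30.8 to 32.3 and correlations of 0.987 to 0.995 between arrays on the log2 scale. HSRA-C replicates 3 and 4 on the high side, and HSRA-S replicate 4 on the low side, stood apart in markers of the collecting duct and inner medulla. The mean log2 level of 15 such markers was 8.01, 7.88, 7.96 and 7.5 in HSRA-S replicates 1 to 4, against 8.26 and 8.33 in these kidneys and 7.79 and 7.97 in the other HSRA-C kidneys. Of these 15 markers 13 were lower in HSRA-S, 3 of them at an unadjusted p under 0.05, where 4.69% of all tested genes were lower. The urea transporter gene Slc14a2 was at 6.85, 7.04, 7.22 and 4.44 in HSRA-S and at 5.99, 6.44, 8.86 and 9.0 in HSRA-C. Counts are therefore also given without HSRA-C replicates 3 and 4 and without HSRA-S replicate 4, and so are the named genes at an unadjusted p under 0.05 where the difference moved by over 1.5 times. In whole kidneys, fewer cells of a type and less RNA per cell cannot be told apart. With 4 arrays a group, precision is limited by the number of arrays.

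Lysosome and autophagy genes tended to be slightly higher in the solitary kidney, and none of them passed the test. Of the 32 members, 26 had a higher mean in HSRA-S and 6 a lower one, where 55.5% of all tested genes were higher. The median of the members' log2 differences (HSRA-S minus HSRA-C throughout) was 0.10, against 0.015 for all tested genes. With limma, 0 members had an adjusted p under 0.05 (smallest adjusted p = 0.332), as did 0% of all tested genes. At an unadjusted p under 0.05 there were 10 members, Hexa, Ctsb, Ctsh, Ctsc, Lamp1, Lipa, Ctss, Sqstm1, Mcoln1 and Neu1. All 10 were higher in HSRA-S, which is 31.2% of the members, against 7.36% of all tested genes. No member was lower at that limit, where 4.69% of all genes were. The values of 3 members lay higher in every HSRA-S kidney than in every HSRA-C kidney, or 9.38%, against 4.12% of all genes, and 0 members lay wholly lower, against 2.17%.

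These counts depended on which kidneys were included. Without HSRA-C replicates 3 and 4, 0 of the 32 members had an unadjusted p under 0.05, where 2.68% of all tested genes were then higher at that limit in a fit of 6 arrays. The median difference was then 0.056 and 26 members had a higher mean in HSRA-S. Without HSRA-C replicate 3 alone 2 members reached the limit (all genes 4.8%), and without HSRA-C replicate 4 alone 2 did (all genes 4.5%). The count was 5 without HSRA-S replicate 1, 5 without HSRA-S replicate 2 and 5 without HSRA-S replicate 4, where 4.91%, 6.15% and 8.29% of all genes were higher at the limit. It was 8 without HSRA-C replicate 1, 9 without HSRA-S replicate 3 and 13 without HSRA-C replicate 2. Of all genes, 7.78%, 7.22% and 8.58% were then higher at the limit. Without HSRA-S replicate 4 the median difference was 0.091. With the difference between proximal tubule and collecting duct marker levels of each array as a covariate, 1 member of 32, Ctss, had an unadjusted p under 0.05, where 5.02% of all tested genes were higher at that limit.

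**Figure D1:**
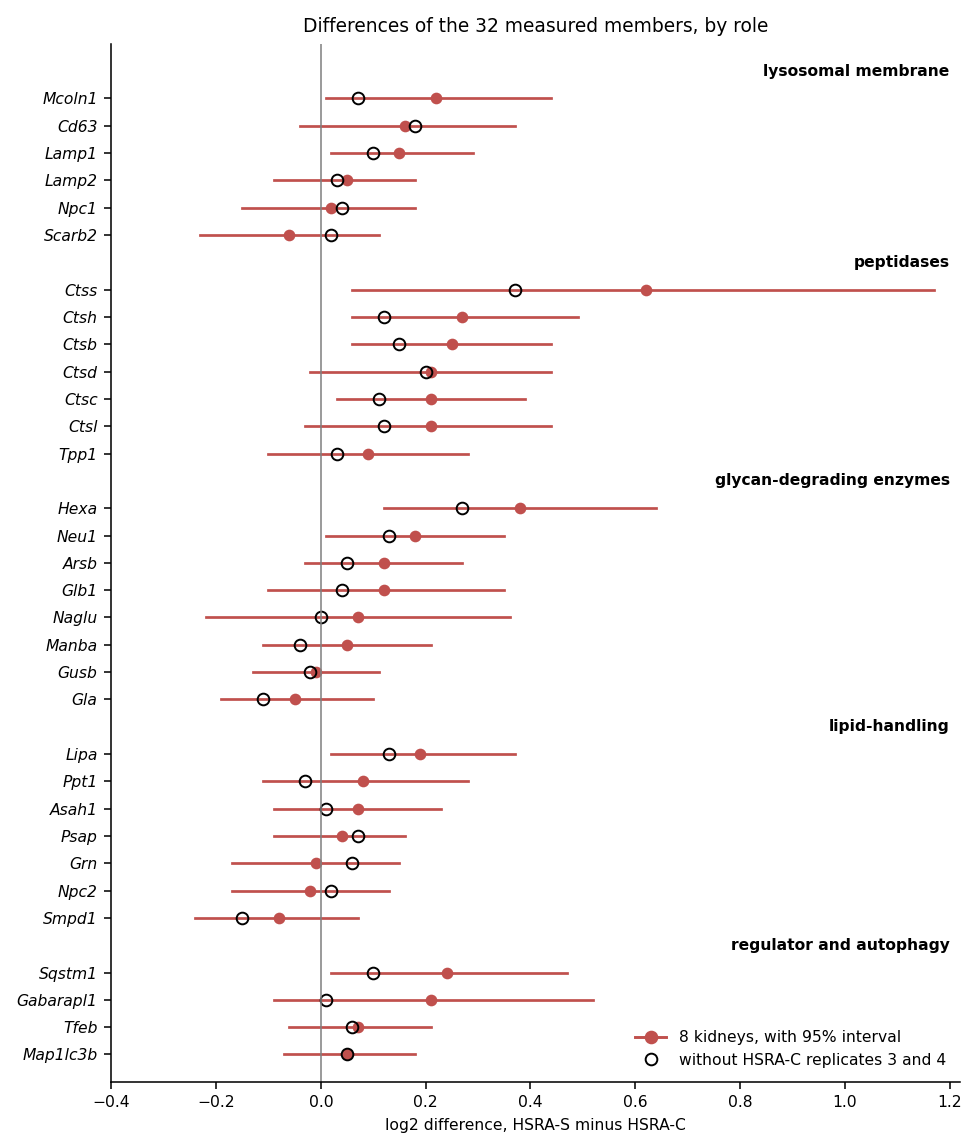
Log2 difference (HSRA-S minus HSRA-C, horizontal axis) of each of the 32 measured members, grouped by role. Filled points and bars give the fit of 8 kidneys with its 95% interval, and open circles the difference without HSRA-C replicates 3 and 4. The filled points lie above 0 for 26 members, and for 10 of them, led by Ctss at 0.62 and Hexa at 0.38, the interval does not reach 0 before adjustment.

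Among the proteins of the lysosomal membrane, Lamp1, a heavily glycosylated protein that lines the organelle, was at log2 10.37, 10.42, 10.36 and 10.48 in HSRA-S kidneys, against 10.3, 10.31, 10.22 and 10.17 in HSRA-C kidneys. The groups did not overlap, although the lowest HSRA-S value lay only 0.047 above the highest HSRA-C value. The difference was 0.15 (SE 0.060), a 1.11-fold higher level, with a limma adjusted p of 0.377, and it was 0.10 without HSRA-C replicates 3 and 4 and 0.08 with the covariate. Mcoln1, the calcium channel through which the lysosome releases calcium, was at 8.96, 8.95, 8.76 and 8.99 in HSRA-S, against 8.82, 8.88, 8.55 and 8.53 in HSRA-C. HSRA-C replicates 3 and 4 were the lowest kidneys, and HSRA-S replicate 3 lay below HSRA-C replicates 1 and 2. Its difference of 0.22 (SE 0.095; adjusted p = 0.395) was 0.07 without HSRA-C replicates 3 and 4. Of the remaining membrane proteins, Cd63, a tetraspanin of late endosomes, differed by 0.16 (SE 0.093), which rested on a value of 10.39 in HSRA-S replicate 4. Without that kidney the difference was 0.07. Lamp2 (0.05), the cholesterol exporter Npc1 (0.02) and Scarb2 (-0.06), the receptor that carries glucocerebrosidase to the lysosome, differed by less than their standard errors of 0.059, 0.075 and 0.077. The 6 membrane proteins as a group had 5 members higher and a median difference of 0.10, which was 0.057 without HSRA-C replicates 3 and 4 and 0.059 without HSRA-S replicate 4.

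All 7 measured peptidases were higher on average in HSRA-S, although Tpp1 was lower with the covariate (-0.041). Their median difference was 0.21, or 0.12 without HSRA-C replicates 3 and 4 and 0.11 with the covariate. At an unadjusted p under 0.05 there were 4 of them, Ctsb, Ctsh, Ctsc and Ctss, or 57.1%, against 7.36% of all genes higher at that limit. Ctsb, a cysteine cathepsin, was at 11.27, 11.19, 11.34 and 11.51 in HSRA-S, against 11.16, 11.19, 10.97 and 10.98 in HSRA-C. The groups touched, with a gap of 0.0014 between the lowest HSRA-S and the highest HSRA-C kidney. The difference was 0.25 (SE 0.085, 95% interval 0.06 to 0.44; adjusted p = 0.349), and 0.15 without HSRA-C replicates 3 and 4. Ctsh, an aminopeptidase of the same family, was at 11.41, 11.24, 11.34 and 11.37 in HSRA-S, against 11.12, 11.34, 10.89 and 10.94 in HSRA-C. The HSRA-S kidneys lay close together, and HSRA-C replicate 2 reached their level. Its difference was 0.27 (SE 0.097; adjusted p = 0.358), or 0.12 without HSRA-C replicates 3 and 4. Ctsc, the dipeptidyl peptidase that activates granule proteases of immune cells, was at 9.96, 9.86, 9.9 and 10.08 in HSRA-S, against 9.78, 9.9, 9.59 and 9.71 in HSRA-C. Here too HSRA-C replicate 2 lay among the HSRA-S kidneys, and the difference of 0.21 (SE 0.081; adjusted p = 0.374) was 0.11 without HSRA-C replicates 3 and 4. The aspartic protease Ctsd (0.21, SE 0.10) and the cysteine protease Ctsl (0.21, SE 0.11) differed as much as Ctsc with a wider spread, and the tripeptidyl peptidase Tpp1 differed by 0.09 (SE 0.085). In Ctsd, HSRA-S replicates 1 and 2 were high at 10.29 and 10.14, while in Ctsl and Tpp1 the high kidney was HSRA-S replicate 4, at 10.86 and 9.11. Without that kidney Ctsl differed by 0.11 and Tpp1 by 0.01.

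Ctss, a cysteine cathepsin of antigen-presenting cells, had the widest difference and the widest spread of all members. It was at 7.33, 7.07, 7.06 and 6.07 in HSRA-S, against 6.41, 6.62, 6.02 and 6.02 in HSRA-C. HSRA-S replicates 1 to 3 lay above every HSRA-C kidney, and HSRA-S replicate 4 lay with the lowest HSRA-C kidneys. The difference was 0.62 (SE 0.25, 95% interval 0.06 to 1.17; adjusted p = 0.385), a 1.53-fold higher level. It was 0.37 without HSRA-C replicates 3 and 4, 0.89 without HSRA-S replicate 4 and 0.76 with the covariate. Macrophage markers were highest in the same 3 kidneys. Their mean log2 level over 17 markers was 5.52, 5.56, 5.51 and 5.16 in HSRA-S, against 5.19, 5.25, 5.17 and 5.02 in HSRA-C. Of 16 tested macrophage markers, 14 were higher in HSRA-S. At an unadjusted p under 0.05, 8 were higher and 0 lower, where 7.36% of all genes were higher and 4.69% lower. The summed intensity of the markers ran from 779 to 1113 in HSRA-S and from 687 to 850 in HSRA-C. Among the defining markers, C1qb was measured at 5.79 to 6.68 and Csf1r at 6.27 to 7.06, while Cd163 was dim in all kidneys at 3.52 to 3.96. C1qb differed by 0.37, Csf1r by 0.27 and Adgre1 by 0.15, whereas Cd163 was lower in HSRA-S, at -0.11. The part of macrophage content in the level of Ctss was not tested.

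Of 8 glycan-degrading enzymes, 6 were higher, with a median of 0.096 that was 0.019 without HSRA-C replicates 3 and 4, 0.027 without HSRA-S replicate 4 and -0.039 with the covariate, and they included the member of smallest p. Hexa, the alpha subunit of the hexosaminidase that degrades GM2 ganglioside, was at 9.46, 9.25, 9.21 and 9.7 in HSRA-S, against 9.04, 9.22, 8.87 and 8.97 in HSRA-C. Only HSRA-C replicate 2 reached the lowest HSRA-S value, and HSRA-S replicate 4 was the highest kidney. The difference was 0.38 (SE 0.12, 95% interval 0.12 to 0.64), a 1.3-fold higher level with an adjusted p of 0.332. It was 0.27 without HSRA-C replicates 3 and 4 and 0.18 with the covariate. Neu1, the lysosomal sialidase, was at 8.19, 8.24, 8.18 and 8.47 in HSRA-S, against 8.12, 8.16, 8.04 and 8.04 in HSRA-C. The groups did not overlap, by a gap of 0.022, and the difference was 0.18 (SE 0.077; adjusted p = 0.404). It was 0.11 without HSRA-S replicate 4, 0.13 without HSRA-C replicates 3 and 4 and 0.06 with the covariate. Arsb, which removes sulfate from dermatan and chondroitin sulfate, was at 0.12 (SE 0.067) and the beta-galactosidase Glb1 at 0.12 (SE 0.10), or -0.057 with the covariate and 0.03 without HSRA-S replicate 4. Without HSRA-C replicates 3 and 4, Arsb was at 0.05 and Glb1 at 0.04. Naglu (0.07) and Manba (0.05) were slightly higher and Gusb (-0.01) and Gla (-0.05), the alpha-galactosidase lacking in Fabry disease, slightly lower, none by more than its standard error, and Naglu and Manba were below 0 both with the covariate and without HSRA-C replicates 3 and 4. The other probe set of Arsb differed by 0.19.

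Of 7 lipid-handling members, 4 were higher, with a median of 0.037 (0.024 without HSRA-C replicates 3 and 4, 0.014 without HSRA-S replicate 4). At an unadjusted p under 0.05 there was 1, or 14.3%, against 7.36% of all genes higher at that limit. This was Lipa, the acid lipase that hydrolyses cholesteryl esters, at 8.58, 8.37, 8.49 and 8.65 in HSRA-S, against 8.38, 8.41, 8.21 and 8.31 in HSRA-C. HSRA-S replicate 2 lay below HSRA-C replicates 1 and 2, and the other HSRA-S kidneys lay above all controls. The difference was 0.19 (SE 0.078; adjusted p = 0.384), or 0.13 without HSRA-C replicates 3 and 4 and 0.09 with the covariate. The acid sphingomyelinase Smpd1 was the member furthest in the other direction, at -0.08 (SE 0.071), followed by Npc2 (-0.02), the soluble partner of Npc1, and the progranulin gene Grn (-0.01). The thioesterase Ppt1 (0.08), the acid ceramidase Asah1 (0.07) and the saposin precursor Psap (0.04) were slightly higher. Npc2, Grn and Ppt1 changed sign without HSRA-C replicates 3 and 4. The 95% interval of Psap ran from -0.09 to 0.16.

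All 4 members that regulate lysosomes or take part in autophagy were higher on average, with a median of 0.14, or 0.058 without HSRA-C replicates 3 and 4. Sqstm1, the cargo receptor p62, was at 9.26, 9.27, 9.16 and 9.1 in HSRA-S, against 8.96, 9.24, 8.88 and 8.73 in HSRA-C. HSRA-C replicate 2 lay among the HSRA-S kidneys, and the difference of 0.24 (SE 0.10; adjusted p = 0.391) was 0.10 without HSRA-C replicates 3 and 4. Gabarapl1, an Atg8-family protein of the autophagosome membrane, differed by 0.21 (SE 0.14) and by 0.01 without HSRA-C replicates 3 and 4. Tfeb itself was at 6.44, 6.38, 6.3 and 6.26 in HSRA-S, against 6.32, 6.24, 6.26 and 6.27 in HSRA-C. HSRA-S replicates 1 and 2 were above all controls and HSRA-S replicates 3 and 4 were within their range, a difference of 0.07 (95% interval -0.06 to 0.21; adjusted p = 0.656). Map1lc3b, the LC3B protein of autophagosomes, was at 9.45, 9.45, 9.35 and 9.42 in HSRA-S, against 9.33, 9.4, 9.33 and 9.39 in HSRA-C. Its difference of 0.05 (95% interval -0.07 to 0.18; adjusted p = 0.725) was within its standard error of 0.055. The other probe set of Map1lc3b differed by 0.064.

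**Figure D2:**
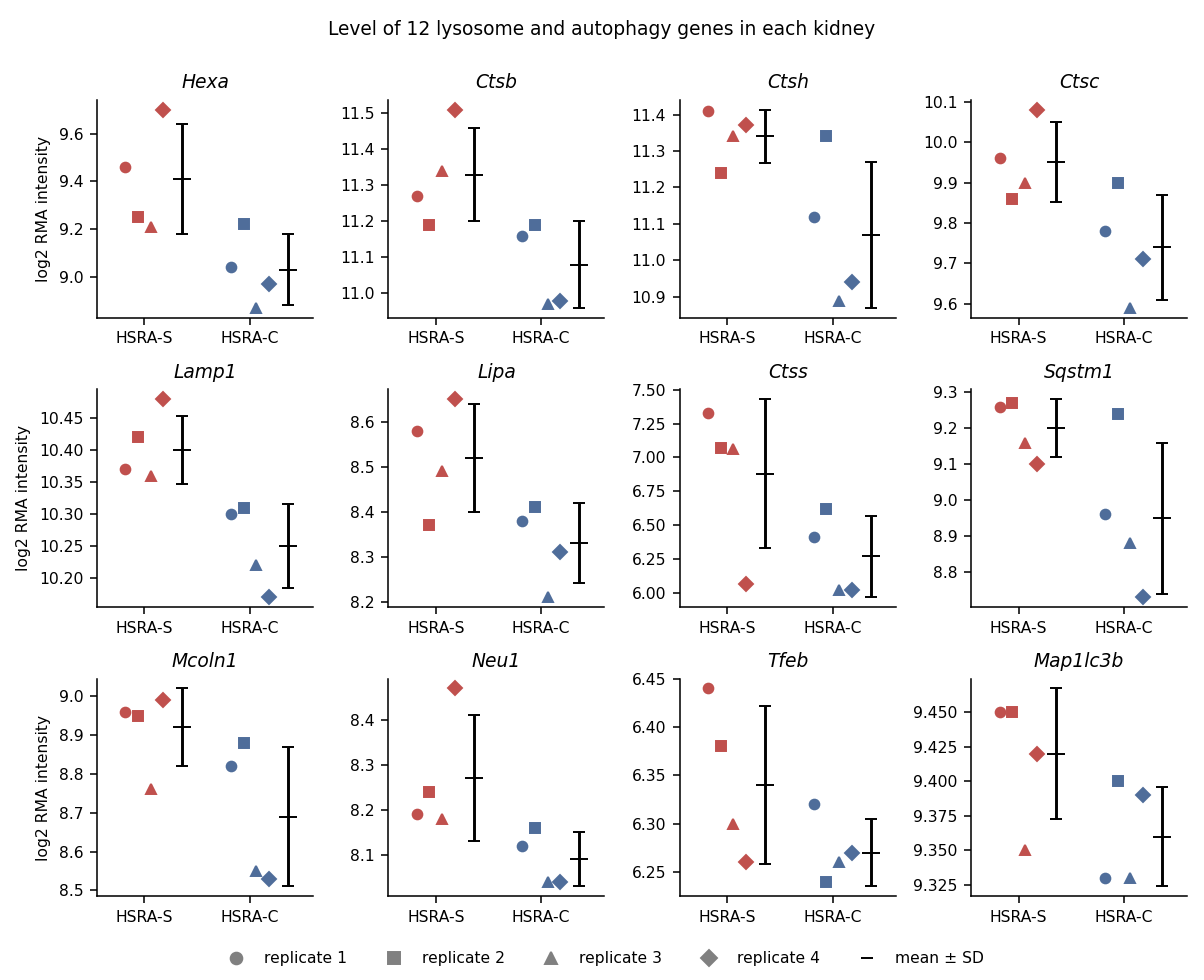
Log2 RMA intensity (vertical axes, each with its own range) of 12 members in each kidney, with HSRA-S to the left of HSRA-C, a symbol per replicate number and the mean ± SD of each group in black. In the 10 genes at an unadjusted p under 0.05, that is all but Tfeb and Map1lc3b, HSRA-C replicate 3 or 4 holds the lowest value, and HSRA-S replicate 4 is high in Hexa at 9.7 and low in Ctss at 6.07.

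The 10 members at an unadjusted p under 0.05 had much the same kidneys at either end. In all 10, the lowest of the 8 values was in HSRA-C replicate 3 or 4, and HSRA-C replicate 2 was the highest control kidney. HSRA-S replicate 4 held the highest value in 7 of the 10. Over all 32 members, HSRA-S replicate 4 was the highest kidney in 16 and HSRA-C replicate 3 or 4 the lowest in 21. Proximal tubule markers moved with these values. Their mean log2 level over 20 markers was 10.4, 10.32, 10.3 and 10.6 in HSRA-S, against 10.26, 10.34, 10.07 and 10.04 in HSRA-C, so that HSRA-S replicate 4 was again the highest, HSRA-C replicate 2 the highest control and HSRA-C replicates 3 and 4 the lowest. Of these 20 markers, 16 were higher in HSRA-S. At an unadjusted p under 0.05, 7 were higher and 1 lower, where 7.36% of all genes were higher and 4.69% lower. The summed intensity of the markers ran from 31428 to 37025 in HSRA-S and from 28185 to 33078 in HSRA-C. The endocytic receptors Lrp2 and Cubn, which define the proximal tubule, differed by only 0.05 and 0.02, and the phosphate transporter Slc34a1 by -0.04. All 10 members stayed higher in HSRA-S without HSRA-C replicates 3 and 4 and with the covariate. The differences were smaller in all 10 without those kidneys, and in 9 of 10, all but Ctss, with the covariate. The 10 were picked as higher in these same arrays, and HSRA-C replicate 3 or 4 was the lowest in each. These counts therefore follow in part from that choice and are descriptive only. The part of the proximal tubule share in the members' levels was otherwise not tested.

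**Figure D3:**
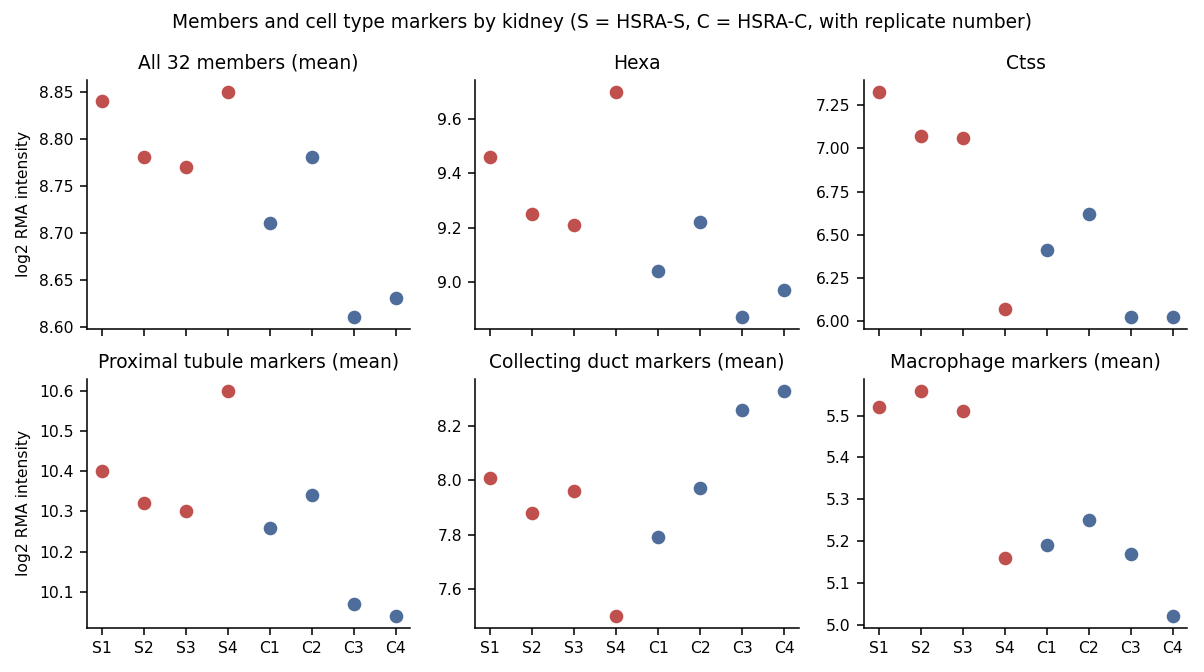
Log2 RMA intensity in each kidney (S1 to S4 are HSRA-S replicates 1 to 4, C1 to C4 HSRA-C replicates 1 to 4) for the mean of the 32 members, Hexa, Ctss and the means of 3 marker lists. The members' mean and Hexa are highest in S4 and lowest in C3 and C4, as is the proximal tubule mean (10.6 in S4, 10.04 in C4), whereas Ctss and the macrophage mean (5.16 in S4) are low in S4.

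Beyond the 35 listed genes, 6 further lists of the pathway, also chosen with earlier results of these data known, held 173 tested genes. None of these passed at an adjusted p under 0.05 either (0 of 173, smallest adjusted p = 0.331). At an unadjusted p under 0.05, 31 were higher in HSRA-S, or 17.9% against 7.36% of all genes, and 4 lower, or 2.31% against 4.69%. The median difference was 0.038. Without HSRA-C replicates 3 and 4, 12 of 173 were higher and 1 lower at that limit, where 2.68% of all genes were higher and 2.17% lower. With the covariate 20 were higher and 3 lower, where 5.02% of all genes were higher and 2.56% lower. Without HSRA-S replicate 4, 30 were higher and 2 lower, where 8.29% of all genes were higher and 4.02% lower. Among the genes named below, some were at an unadjusted p under 0.05 both with all 8 kidneys and without HSRA-C replicates 3 and 4. They were Dpp7, Pla2g15, Arsg, Lgmn, Slc36a1, Tmem192, Clcn7, Atp6v1c1, Rragc and Rragd.

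Other hydrolases and their cofactors had 7 of 28 genes higher and 2 lower, Arsg and Ctsk, at an unadjusted p under 0.05, against 4 higher and 1 lower without HSRA-C replicates 3 and 4. Lgmn, the asparaginyl endopeptidase legumain, was at 10.01, 9.9, 9.87 and 10.2 in HSRA-S, against 9.65, 9.75, 9.2 and 9.23 in HSRA-C. Every HSRA-S kidney lay above every HSRA-C kidney, and the 1.45-fold higher level (difference 0.54, SE 0.13) had an adjusted p of 0.331. The difference was 0.30 without HSRA-C replicates 3 and 4 and 0.27 with the covariate. Dpp7, a dipeptidyl peptidase of vesicles and lysosomes, was at 9.48, 9.31, 9.31 and 9.78 in HSRA-S, against 9.02, 9.16, 8.91 and 8.83 in HSRA-C, again without overlap (0.49, SE 0.11; 0.28 with the covariate). The lysosomal phospholipase Pla2g15 was higher by 0.28 (SE 0.067). Arsg, a sulfatase that acts on heparan sulfate, ran the other way, at 5.02, 4.85, 5.11 and 5.19 in HSRA-S, against 5.39, 5.25, 5.41 and 5.48 in HSRA-C (-0.34, SE 0.085). The cysteine cathepsin Ctsk differed by -0.24 (SE 0.097). Among other membrane proteins, 8 of 36 were higher at the same limit, or 22.2%, against 7.36% of all genes. The 1 lower was Slc46a3 (-0.20, SE 0.081, and -0.13 without HSRA-C replicates 3 and 4), or 2.78% against 4.69%. Without those kidneys 4 were higher and 0 lower, where 2.68% of all genes were higher and 2.17% lower. The amino acid exporter Slc36a1 was 1.29-fold higher (0.37, SE 0.083), the membrane protein Tmem192 was higher by 0.20 (SE 0.054), Mfsd1 by 0.36 (SE 0.11) and the chloride-proton exchanger Clcn7 by 0.24 (SE 0.071).

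The V-ATPase is the proton pump that acidifies the lysosome and that intercalated cells also carry at their surface. Of its 22 tested subunits, 6 were higher (27.3%, against 7.36% of all genes) and 0 lower (against 4.69%) at an unadjusted p under 0.05. The count higher was 1 without HSRA-C replicates 3 and 4, 2 with the covariate and 5 without HSRA-S replicate 4. Of all genes, 2.68%, 5.02% and 8.29% were higher in those fits. The 4 subunits of smallest p all belong to the cytosolic V1 sector. Atp6v0b of the V0 sector came close behind, at 0.20 (SE 0.072). Its unadjusted p in limma's fit was 0.0204, against 0.0192 for Atp6v1d. Atp6v1c1 was at 8.35, 8.38, 8.31 and 8.48 in HSRA-S, against 8.13, 8.16, 8.04 and 8.04 in HSRA-C, without overlap (0.29, SE 0.063). Atp6v1b2 differed by 0.34 (SE 0.11), or 0.19 without HSRA-C replicates 3 and 4, Atp6v1a by 0.23 (SE 0.065) and Atp6v1d by 0.22 (SE 0.079). The median over all 22 subunits was 0.027, close to the 0.015 of all genes.

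MiT factors and lysosomal nutrient sensing, through which the lysosome signals amino acid supply to mTORC1, formed a list of 18 tested genes. At an unadjusted p under 0.05, 4 were higher (22.2%, against 7.36% of all genes) and 1 lower (5.56%, against 4.69%). Without HSRA-C replicates 3 and 4, 3 were higher and 0 lower, where 2.68% of all genes were higher and 2.17% lower. The lower gene was Mitf, the MiT factor that gives the family its name, at 6.99, 6.75, 7.1 and 6.85 in HSRA-S, against 7.0, 7.05, 7.4 and 7.24 in HSRA-C. HSRA-S replicate 3 lay within the range of the controls, and HSRA-S replicate 1 lay just below the lowest of them. The limma difference of -0.25 (SE 0.11, adjusted p = 0.391) was -0.10 without HSRA-C replicates 3 and 4. Rragc, a Rag GTPase that anchors mTORC1 at the lysosome, was at 7.26, 7.27, 7.25 and 7.26 in HSRA-S, against 7.04, 7.07, 6.92 and 7.06 in HSRA-C. The HSRA-S values were almost equal and all above the controls (0.24, SE 0.057; adjusted p = 0.331). Its relative Rragd, a known target of the MiT factors, was at 8.58, 8.48, 8.41 and 8.46 in HSRA-S, against 8.08, 8.33, 8.13 and 8.16 in HSRA-C (0.31, SE 0.071). The Ragulator subunit Lamtor1 was higher by 0.26 (SE 0.077) without overlap, and Flcn, the folliculin that acts on Rragc and Rragd, by 0.19 (SE 0.072). Without HSRA-C replicates 3 and 4 the unadjusted p in limma's fit of all genes was 0.0186 for Rragc, 0.0188 for Rragd, 0.082 for Lamtor1 and 0.122 for Flcn.

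Sorting genes had 3 of 29 higher and 0 lower at an unadjusted p under 0.05, or 10.3%, and autophagy machinery had 3 of 40 higher and 0 lower, or 7.5%, which is near the 7.36% of all genes. Both counts were 0 without HSRA-C replicates 3 and 4, where 2.68% of all genes were higher. In sorting, the lipid kinase Pikfyve (0.30, SE 0.092; 0.14 without HSRA-C replicates 3 and 4) and Igf2r (0.23, SE 0.073), the mannose 6-phosphate receptor that brings hydrolases to the lysosome, did not overlap between groups. The retromer subunit Vps35 (0.24, SE 0.086) and the adaptor subunit Ap1b1 (0.15, SE 0.071) followed, at 0.13 and 0.09 without HSRA-C replicates 3 and 4. In autophagy, Map1lc3a (0.22, SE 0.071), a relative of Map1lc3b, and the phosphoinositide-binding protein Wipi1 (0.17, SE 0.058) did not overlap between groups, nor did the cargo receptor Tax1bp1 (0.13, SE 0.066). The mitophagy receptor Fundc1 differed by 0.21 (SE 0.083), with HSRA-S replicate 4 among the HSRA-C values.

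**Figure D4:**
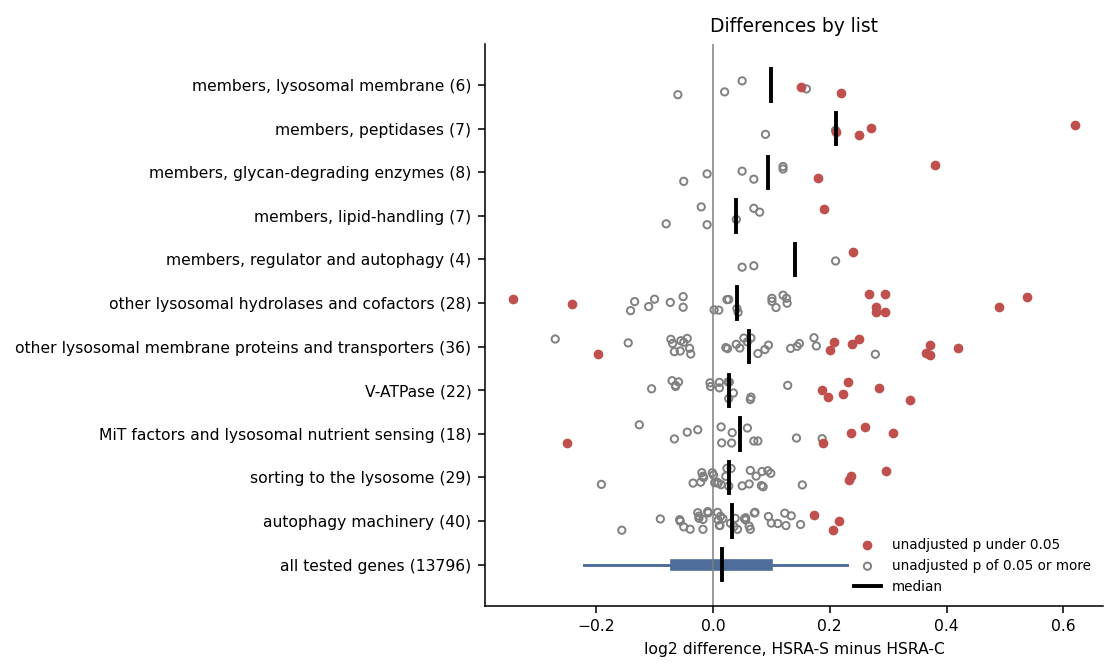
Log2 difference (HSRA-S minus HSRA-C, horizontal axis) of every tested gene in the 5 role groups of the members and in 6 further lists, with the number of genes in brackets. Filled points are at an unadjusted p under 0.05 and black bars are medians. For all 13796 tested genes the thick bar spans the middle quartiles (-0.063 to 0.093) and the thin bar the 5th to 95th percentiles (-0.22 to 0.23). The medians of the role groups lie between 0.037 for lipid handling and 0.21 for the peptidases, and that of the peptidases is 0.12 without HSRA-C replicates 3 and 4.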

How the data were processed

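Per the submitters' processing notes the arrays were summarised by RMA, which corrects background, equalises the intensity distributions of the arrays and sums the probes of a probe set. No software version for it is given in these sources. The deposited values are linear intensities (2.12 to 9259), of which log2 was taken before any test. All 8 columns were used.

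Probe sets with exactly 1 symbol in the platform annotation (18644 of 29214) were named, and 18460 matched a RefSeq gene of GRCr8 by gene ID. The brightest probe set by mean was kept per gene. The dimmest 20% of genes (3449) were left out. HSRA-S was compared with HSRA-C across all 13796 remaining genes with limma 3.58.1 (R 4.3.3; lmFit and eBayes on group alone), with p-values adjusted by Benjamini-Hochberg and called at 0.05. Unadjusted p-values under 0.05 are descriptive. The fit was tested on simulated data.

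The labels call the 4 samples of a group biological replicates. Alternatives covered the filter, the probe set rule, the scaling, the test, a marker covariate and left-out kidneys.

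The members and lists were chosen with earlier results of these data known. Values per kidney are given for the 10 members of smallest p, for the member of each role group with the largest difference, and for Tfeb, Mcoln1, Lamp1, Sqstm1 and Map1lc3b. From each further list up to 4 genes of smallest p are named. Ctsk, Slc46a3, Mitf, Atp6v0b and the markers named were chosen after their values were seen. Promoters are printed for members whose window held TCACGTG. Scanner files were not used here, so background correction could not be varied.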

Additional observations from a re-analysis of the deposited data

Results flagged for a closer look

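In 5 of the 64 sets of 4 kidneys examined, 1 kidney lay far from the other 3, judged by its gap to the nearest over the range of the set. Chance alone flags about 1 in 20 such sets. Cd63 was at 10.39 in HSRA-S replicate 4, against 9.98 to 10.03 in the other HSRA-S kidneys. Tpp1 was also high in HSRA-S replicate 4, at 9.11 against 8.77 to 8.82. Mcoln1 was low in HSRA-S replicate 3, at 8.76 against 8.95 to 8.99. Grn was at 9.4 in HSRA-S replicate 3 against 9.26 to 9.28, and Asah1 at 8.42 in HSRA-C replicate 2 against 8.16 to 8.2 in the other HSRA-C kidneys.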

How the results depend on the processing

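In the 19 alternatives run, no member passed an adjusted p of 0.05 (smallest 0.173). Neither did any of the 24 other genes named by smallest p (smallest 0.147). The 10 members higher at an unadjusted p under 0.05 became 6 in the unmoderated test, 6 with array medians subtracted, 1 with the covariate and 0 without HSRA-C replicates 3 and 4, and 2 to 13 when a single kidney was left out. Of all genes, 6.69%, 6.37%, 5.02%, 2.68% and 4.5% to 8.58% were higher in those fits, in that order, against 7.36% in the main fit. The 3 members without overlap became 0 with array medians subtracted, 5 higher and 1 lower without HSRA-C replicates 3 and 4, and 3 to 10 higher and 0 to 1 lower when a single kidney was left out. Leaving kidneys out can only add genes without overlap. The share of all genes without overlap was not computed in these fits, so the changes cannot be judged against it. Of the other pathway genes, the 31 higher became 20 with the covariate and 12 without HSRA-C replicates 3 and 4. The 4 lower became 2 in the unmoderated test, 1 without those kidneys, and 1 to 5 when a single kidney was left out. Of all genes, 3.73%, 2.17% and 2.52% to 6.3% were lower in those fits, against 4.69% in the main fit. Correlations of same-numbered deviations ran from -0.11 to 0.129, and those of differently numbered ones from -0.255 to 0.33. With 4 arrays a group, these values cannot exclude that replicate numbers pair the kidneys. With the replicate number as a block, 7 members and 29 other genes were higher at an unadjusted p under 0.05, against 10 and 31 without it. Of all genes, 7.03% were higher with the block and 7.36% without it. No member or other pathway gene passed at an adjusted p under 0.05 in either fit.

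The sign held in all alternatives for 22 members and for all 24 other genes named by smallest p. With the covariate, differences turned to 0.051 for Scarb2, -0.041 for Tpp1, -0.057 for Glb1, -0.058 for Manba, -0.13 for Naglu and 0.067 for Grn. Without HSRA-C replicates 3 and 4 they turned to 0.015 for Scarb2, -0.043 for Manba, -0.0021 for Naglu, 0.024 for Npc2, -0.025 for Ppt1 and 0.060 for Grn. Leaving out a single kidney gave -0.028 to 0.052 for Npc1, -0.025 to 0.012 for Gusb, -0.024 to 0.16 for Naglu, -0.053 to 0.028 for Npc2 and -0.055 to 0.036 for Grn. The causes were not tested. Fewer arrays enter a fit without kidneys, and dim genes are compressed by RMA. Gusb was not tested without the dimmest 50% of genes.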
